A study of Mus musculus with 18 samples.

Results

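Cytosine methylation in DNA is written by the DNA methyltransferases and taken off again by way of the TET enzymes, and the expression of these genes was followed in mouse embryonic stem cells (ESCs), trophoblast stem cells (TSCs) and extra-embryonic endoderm (XEN) cells kept in low oxygen. The genes were chosen by name: Dnmt1, Dnmt3a, Dnmt3b, Dnmt3l, Uhrf1, Tet1, Tet2 and Tet3. All 8 had values in each of the 3 tables, which held 13578 genes for the ESCs, 13518 for the TSCs and 11538 for XEN cells, or 14804 different genes in all. Normoxia was 20% oxygen, and hypoxia was 2% oxygen held for 2 or 7 days, with 2 biological replicates of each condition and 18 RNA-seq libraries in all. The ESCs were wild-type E14, grown without feeder cells on gelatin. The TSCs were grown on feeders and the XEN cells on gelatin in medium partly conditioned on mouse embryonic fibroblasts, and the labels name no line for either. Each cell type thus stands for what may be a single line, and the spread measured is that between cultures of it.

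DNMT1 copies methylation onto the new DNA strand after replication, and it is brought to hemimethylated CpGs by UHRF1. DNMT3A and DNMT3B methylate DNA that carried no methylation before, and DNMT3L, which has no catalytic activity of its own, stimulates both and is known from germ cells and pluripotent cells. TET1, TET2 and TET3 oxidise 5-methylcytosine in a reaction that uses oxygen, iron and 2-oxoglutarate, after which the oxidised base is diluted at replication or cut out by base excision repair. Trophoblast and primitive endoderm are known for lower DNA methylation than the epiblast lineage that ESCs model.

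The deposited unit was TPM, an abundance scaled for depth and gene length, in which the authors took the whole span of a gene as its length. Values of the same gene are therefore given below as deposited TPM, and values of different genes are compared only as exon-length TPM, recomputed here with the summed length of each gene's exons. The libraries held between 35592641 and 75204029 reads, as recovered from the TPM. Genes past 0.4 TPM in 2 or more of a cell type's 6 libraries were tested with limma on log2(TPM + 0.5), a scale that understates the change of low genes. A gene was counted as differentially expressed (DE) if it changed over 1.5-fold with an adjusted p no higher than 0.1. All 8 genes were tested in ESCs and TSCs, whereas Tet2 was below the minimum in XEN cells, which left 7 there. With 2 libraries against 2, an exact permutation test of a single gene cannot give a two-sided p below 0.333, so p-values come only from the model across all genes. In hypoxia, genes of glycolysis and its hypoxic regulation served as a check of the labels. Their summed exon-length TPM lay between 5284 and 5767 in normoxic ESCs and between 8682 and 11539 in hypoxic ones. In TSCs it lay between 5042 and 5137 in normoxia, 10655 and 10937 on day 2, then 6342 and 7704 on day 7. In XEN cells it lay between 4124 and 4613 in normoxia and between 5008 and 7158 in hypoxia. Markers of each cell type were highest in that cell type. ESC markers summed to between 8733 and 10898 exon-length TPM in ESCs and to at most 796 elsewhere, TSC markers to between 13075 and 28237 in TSCs and at most 3109 elsewhere, and XEN markers to between 7817 and 11368 in XEN cells and at most 78.9 elsewhere. In bulk RNA, fewer cells of a type and less RNA per cell cannot be told apart. The 3 tables were normalized separately by the authors, so levels set side by side across cell types are described and were not tested.

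The promoters of 4 of the genes are shown so that the sequence can be read beside the expression. They are those of the maintenance genes Dnmt1 and Uhrf1, and of Dnmt3b and Tet1, which had the largest DE changes. Each window runs from 250 bases before to 50 bases after a RefSeq transcript start on assembly GRCm38.p6, 5′ to 3′ on the gene's strand. Capitals mark the letters of 2 motifs searched on both strands, the core of the hypoxia response element (ACGTG or GCGTG) and an E2F site (TTTGGCGC or TTTCGCGC), E2F being the factor family of the G1 to S transition.
Dnmt1, window 3 of 3, chr9:20952574-20952873, minus strand: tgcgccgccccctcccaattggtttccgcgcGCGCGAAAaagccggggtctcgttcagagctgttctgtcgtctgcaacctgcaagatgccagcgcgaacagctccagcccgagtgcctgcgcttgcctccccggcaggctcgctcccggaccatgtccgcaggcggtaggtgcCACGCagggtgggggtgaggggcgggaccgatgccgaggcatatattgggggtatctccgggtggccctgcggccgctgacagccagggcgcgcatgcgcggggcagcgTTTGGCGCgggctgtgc
Uhrf1, window 2 of 2, chr17:56304063-56304362, plus strand: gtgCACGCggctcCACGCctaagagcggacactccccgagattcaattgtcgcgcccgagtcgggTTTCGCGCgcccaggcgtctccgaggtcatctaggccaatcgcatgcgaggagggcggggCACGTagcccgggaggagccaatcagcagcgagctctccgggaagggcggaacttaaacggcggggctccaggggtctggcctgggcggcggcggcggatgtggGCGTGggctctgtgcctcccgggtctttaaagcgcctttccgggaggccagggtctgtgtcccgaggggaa
Dnmt3b, chr2:153649199-153649498, plus strand: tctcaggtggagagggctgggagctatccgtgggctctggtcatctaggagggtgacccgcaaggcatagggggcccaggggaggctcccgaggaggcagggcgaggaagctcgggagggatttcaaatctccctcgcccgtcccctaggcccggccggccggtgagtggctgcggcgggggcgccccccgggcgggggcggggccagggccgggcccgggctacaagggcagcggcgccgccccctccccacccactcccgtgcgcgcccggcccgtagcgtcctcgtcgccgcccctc
Tet1, chr10:62887275-62887574, minus strand: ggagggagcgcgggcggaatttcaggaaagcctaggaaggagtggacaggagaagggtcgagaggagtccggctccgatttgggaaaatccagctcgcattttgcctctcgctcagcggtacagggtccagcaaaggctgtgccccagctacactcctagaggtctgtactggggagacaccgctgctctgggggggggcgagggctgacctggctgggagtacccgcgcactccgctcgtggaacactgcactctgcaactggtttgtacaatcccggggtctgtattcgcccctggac
Of the windows of Dnmt1 and Uhrf1, those shown are the only ones that hold either motif. The Dnmt1 window held 2 E2F sites and 1 hypoxia core, and the Uhrf1 window held 1 E2F site and 4 hypoxia cores. The other 2 windows of Dnmt1 held neither set of letters and had 2 and 12 CG dinucleotides, and the other window of Uhrf1 held neither and had 12. The single windows of Dnmt3b and Tet1 held neither set of letters. Over all 32851 mouse promoters of that length in the RefSeq table, an E2F site of these letters was found in 0.813% and a hypoxia core in 43.8%. CG dinucleotides, the targets of the enzymes themselves, numbered 33 in both the Dnmt1 and the Uhrf1 window shown, 30 in that of Dnmt3b and 17 in that of Tet1, against a median of 7 and a 90th percentile of 31 over all promoters. All 8 genes matched the table, with 15 windows between them. The single Tet2 window held 57 CG dinucleotides, more than 99.8% of promoters, whereas the 3 windows of Dnmt3l held 6, 4 and 3. Hypoxia cores were found in genes not shown too, with 1 in the Tet2 window and 2 overlapping ones in window 3 of Dnmt3a. Dnmt3l had 2 overlapping cores in window 2 and 1 core in window 3. The remaining windows of Dnmt3a and Dnmt3l and that of Tet3 held none, and no gene left unshown had an E2F site. A match describes the letters only, and absence of a match says nothing about the factor.

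Dnmt1 (chr9:20907209-20959888, minus strand, GRCm38) was among the more abundant transcripts in the 3 cell types, and no difference between conditions was detected in ESCs or XEN cells. In ESCs, deposited TPM were 124 and 109 in normoxia, 108 and 126 on day 2, then 114 and 122 on day 7. In XEN cells they were 99.3 and 96.0 in normoxia, 103 and 93.4 on day 2, then 108 and 96.3 on day 7. In both cell types the conditions overlapped, and the largest of the log2 fold changes was 0.06 (standard error (SE) 0.14, limma adjusted p = 0.926, XEN cells on day 7 against normoxia). TSCs held less, with 60.6 and 77.8 in normoxia, 69.5 and 65.6 on day 2, then 60.6 and 42.9 on day 7. The day 7 libraries of TSCs lay below both day 2 libraries, at a log2 fold change of -0.40 (SE 0.23, limma adjusted p = 0.312), which did not pass the test.

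Uhrf1 (chr17:56303321-56323486, plus strand), the reader of hemimethylated DNA, was the more variable of the maintenance genes. Deposited TPM in ESCs were 350.0 and 309.7 in normoxia, 344 and 279 on day 2, then 319.6 and 346 on day 7, and the conditions overlapped. In TSCs they were 96.7 and 118, then 101 and 133, then 87.0 and 66.8, so that the day 7 libraries were the lowest and lay apart from both other groups. Against day 2 the log2 fold change was -0.60 (SE 0.23, limma adjusted p = 0.148) and against normoxia -0.49 (SE 0.23, adjusted p = 0.532). In XEN cells Uhrf1 was at 121 and 155 in normoxia, 142 and 140.1 on day 2, then 183 and 157 on day 7. Here the day 7 libraries were the highest, with a log2 fold change against normoxia of 0.31 (SE 0.17, limma adjusted p = 0.648). Neither direction passed the test. As exon-length TPM, Uhrf1 stood at 1.47 to 2.12 times Dnmt1 in the ESC libraries, 0.951 to 1.34 times in those of TSCs and 0.809 to 1.13 times in XEN cells, and the ESC range did not overlap the others.

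Dnmt3b (chr2:153649450-153687730, plus strand) was the main catalytic de novo methyltransferase transcript in each cell type. In the main fit it was the only methyltransferase gene with a DE change. In TSCs, deposited TPM were 90.1 and 103 in normoxia, 148 and 124 on day 2, then 46.2 and 34.6 on day 7. The 3 conditions did not overlap: day 2 was highest and day 7 lowest. From day 2 to day 7 Dnmt3b fell by 1.74 on the log2 scale (SE 0.21, limma adjusted p = 0.0161). The difference between day 2 and normoxia (log2 fold change 0.49, SE 0.21, limma adjusted p = 0.394) and that between day 7 and normoxia (-1.26, SE 0.21, adjusted p = 0.124) did not pass the test. On exon-length TPM the latter did, at -1.21 (limma adjusted p = 0.0927).

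In ESCs Dnmt3b was at 231 and 238 deposited TPM in normoxia, 219.7 and 252 on day 2, then 223 and 219.8 on day 7. Day 7 lay just below normoxia and inside the day 2 range, with a log2 fold change against normoxia of -0.08 (SE 0.12, limma adjusted p = 0.979). In XEN cells it was at 53.1 and 50.3 in normoxia, 39.4 and 34.8 on day 2, then 38.8 and 32.4 on day 7. All 4 hypoxic XEN libraries were below both normoxic ones. The log2 fold changes, -0.47 on day 2 (SE 0.16, unadjusted p = 0.0240, limma adjusted p = 0.572) and -0.54 on day 7 (SE 0.16, unadjusted p = 0.0140, adjusted p = 0.431), did not pass the test.

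Dnmt3a (chr12:3806007-3914443, plus strand), the other catalytic de novo enzyme, lay in the opposite direction to Dnmt3b in TSCs, without passing the test. Its deposited TPM in TSCs were 9.31 and 11.1 in normoxia, 7.99 and 12.6 on day 2, then 24.8 and 14.03 on day 7. Both day 7 libraries lay above the other 4, and the replicates of day 7 differed more from each other than those of normoxia. The log2 fold change of day 7 was 0.86 against day 2 (SE 0.35, limma adjusted p = 0.162) and 0.85 against normoxia (SE 0.35, adjusted p = 0.468). With the libraries scaled by the median ratio of their genes, the first of these was 1.13 (limma adjusted p = 0.0796), and with voom (limma on reads) 1.03 (adjusted p = 0.0835), both DE. Leaving out the first day 7 replicate gave 0.46 against day 2 and 0.45 against normoxia, and leaving out the second gave 1.26 and 1.25. An exon of Dnmt3a overlaps the antisense gene Dnmt3aos, and the strand setting of the counting is not given in the sources used here. ESCs held between 17.3 and 20.7 deposited TPM in their 6 libraries, with the conditions overlapping. XEN cells held 1.83 and 2.71 in normoxia, 1.43 and 1.65 on day 2, then 1.67 and 2.99 on day 7.

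Dnmt3l (chr10:78041947-78063622, plus strand), the cofactor, separated ESCs from the other cell types. Deposited TPM in ESCs were 362 and 337 in normoxia, 434 and 319 on day 2, then 413 and 413 on day 7. Day 7 lay above normoxia by 0.24 on the log2 scale (SE 0.16, limma adjusted p = 0.839). In TSCs it was at 3.73 and 3.75 in normoxia, 32.5 and 7.69 on day 2, then 3.17 and 8.54 on day 7. Both day 2 libraries were above normoxia, and the first was far above the second. The log2 fold change of 1.95 (SE 0.68, limma adjusted p = 0.314) did not pass the test, and was 0.95 without the first day 2 replicate and 2.96 without the second. In XEN cells Dnmt3l was barely detected, with 14, 100, 178, 235, 21 and 58 reads in the 6 libraries, or 0.199 and 0.869 deposited TPM in normoxia, 1.57 and 2.11 on day 2, then 0.257 and 1.03 on day 7. Day 2 was highest there too (log2 fold change against normoxia 1.25, SE 0.44, limma adjusted p = 0.585). An exon of Dnmt3l overlaps Aire on the opposite strand.

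Tet1 (chr10:62804570-62908996, minus strand) showed the largest fold change of the 8 genes. In TSCs, deposited TPM were 1.15 and 1.37 in normoxia, 5.89 and 4.22 on day 2, then 0.443 and 0.391 on day 7. The libraries held 407, 526, 2449, 1752, 180 and 169 Tet1 reads in that order, and the 3 conditions did not overlap. From day 2 to day 7 Tet1 fell by 2.58 on the log2 scale (SE 0.27, limma adjusted p = 0.0116). From normoxia to day 2 the log2 fold change was 1.65 (SE 0.27, unadjusted p = 0.000471, limma adjusted p = 0.116), which did not pass the threshold, and voom gave 1.99 (adjusted p = 0.0812). Day 7 against normoxia gave -0.94 (SE 0.27, limma adjusted p = 0.298).

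ESC libraries held 82.9 and 80.6 deposited TPM of Tet1 in normoxia, 44.3 and 92.9 on day 2, then 51.2 and 58.4 on day 7. Day 7 lay below normoxia, at a log2 fold change of -0.58 (SE 0.29, limma adjusted p = 0.697), which did not pass the test. With single libraries left out this change lay between -0.67 and -0.48. Its SE also takes in the spread of the day 2 libraries. The replicates of day 2 stood on either side of all others. The day 2 log2 fold change against normoxia, -0.35 (SE 0.29, limma adjusted p = 0.987), was 0.18 without the first of them and -0.88 without the second. Without the first, day 7 against day 2 was DE at -0.76 (limma adjusted p = 0.0718). XEN cells held 2.75 and 3.98 in normoxia, 2.59 and 2.64 on day 2, then 1.81 and 3.18 on day 7, with log2 fold changes against normoxia of -0.29 and -0.39 that did not pass the test (limma adjusted p = 0.812 and 0.738).

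Tet2 (chr3:133463679-133545139, minus strand) followed Tet1 in ESCs and, with a smaller amplitude, in TSCs. In ESCs deposited TPM were 37.0 and 31.3 in normoxia, 22.2 and 40.9 on day 2, then 25.9 and 26.0 on day 7. Day 7 lay below normoxia, at a log2 fold change of -0.39 (SE 0.25, limma adjusted p = 0.831), and the day 2 replicates again stood on either side. In TSCs they were 3.28 and 3.29 in normoxia, 6.05 and 4.4004 on day 2, then 3.03 and 1.94 on day 7, with no overlap between conditions. From day 2 to day 7 Tet2 fell by 0.95 on the log2 scale (SE 0.29, limma adjusted p = 0.0944). Against normoxia the changes were 0.58 on day 2 (SE 0.29, limma adjusted p = 0.446) and -0.37 on day 7 (SE 0.29, adjusted p = 0.700). XEN libraries held between 63 and 90 Tet2 reads, or 0.148 to 0.424 deposited TPM, below the minimum for a test. An exon of Tet2 overlaps Gm42567 on the opposite strand.

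Tet3 (chr6:83362373-83459084, minus strand) had the reverse order of cell types. XEN cells held 18.2 and 16.4 deposited TPM in normoxia, 17.9 and 20.7 on day 2, then 13.6 and 17.9 on day 7, and its log2 fold changes there lay between -0.30 and 0.15. TSCs held 5.04 and 5.31 in normoxia, 8.20 and 6.35 on day 2, then 5.19 and 2.84 on day 7. Day 2 was the highest in TSCs and lay apart from both other groups, with a log2 fold change of day 7 against day 2 of -0.82 (SE 0.32, limma adjusted p = 0.1505). ESCs held between 1.79 and 2.93, with no log2 fold change above 0.08.

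**Figure D1:**
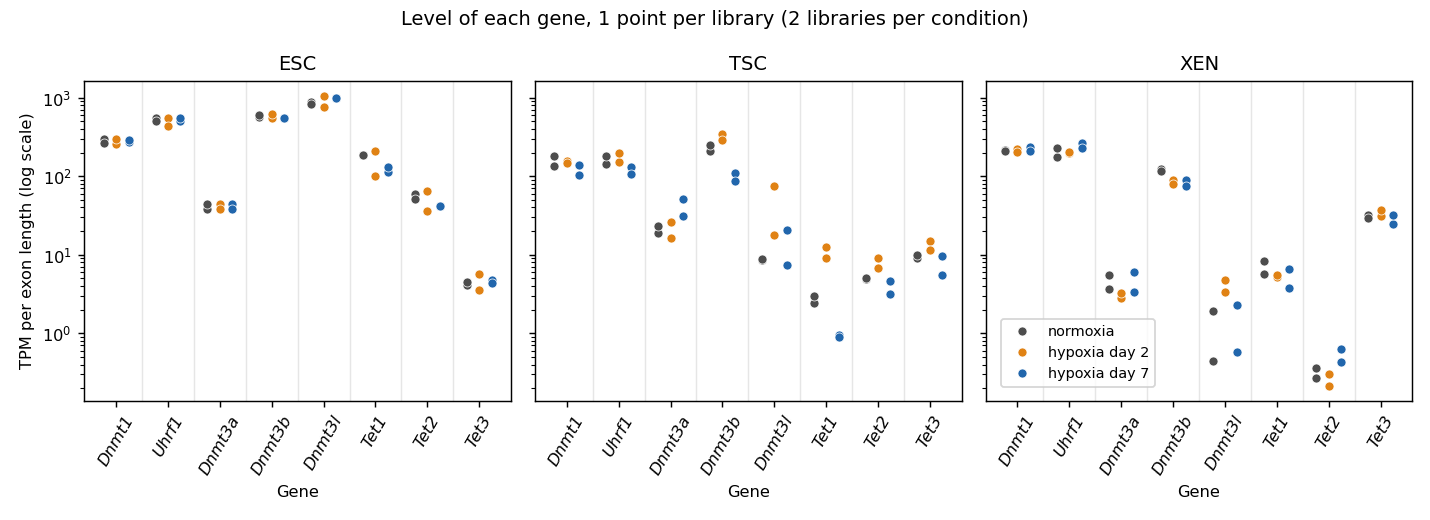
Exon-length TPM (log axis) of the 8 genes in each of the 18 libraries, by cell type and condition, with a point per library. Dnmt3l lay between 769 and 1066 in ESCs and between 0.445 and 74.2 elsewhere, and Tet3 was highest in XEN cells, at 24.3 to 36.8.

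Across the 9 groups of libraries, 7 of the 8 genes had their ESC groups at the top or among the top groups, and Tet3 had them at the bottom. For Uhrf1, Dnmt3b, Dnmt3l, Tet1 and Tet2, the 3 ESC groups took the top 3 ranks by mean deposited TPM and lay apart from the other 6. They took these ranks for Dnmt1 too, but the lowest ESC library, at 107.53, lay just below the highest XEN library, at 107.66. For Dnmt3a, TSCs on day 7 ranked first, at 14.03 and 24.8, and overlapped the ESC groups that followed. For Tet3 the order was XEN cells, TSCs and ESCs, and the lowest TSC library, at 2.84, overlapped the highest ESC library. The order of TSCs and XEN cells differed between genes. Dnmt1 and Uhrf1 had higher means in the XEN groups than in the TSC groups, with normoxic XEN cells overlapping day 2 TSCs for Uhrf1. Dnmt3a, Dnmt3l and Tet2 were higher in the TSC groups. For Dnmt3b and Tet1 the TSC groups lay on both sides of XEN groups, and the day 7 TSC libraries of Dnmt3b overlapped hypoxic XEN cells, whereas those of Tet1 ranked last of all.

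In normoxia, the ratio of mean deposited TPM between cell types ranged widely over the 8 genes. Dnmt1 in ESCs was 1.68 times its level in TSCs and 1.19 times that in XEN cells, and Uhrf1 was at 3.07 and 2.39 times. Dnmt3b in ESCs was at 2.43 and 4.53 times its level in TSCs and XEN cells, and Dnmt3a at 1.84 and 8.24 times. The contrast was widest for Dnmt3l, at 93.4 times TSCs and 655 times XEN cells, for Tet1, at 64.9 and 24.3 times, and for Tet2, at 10.4 and 162 times. Tet3 in ESCs was at 0.424 times its level in TSCs and 0.127 times that in XEN cells. The XEN values of Dnmt3l and Tet2 rest on between 14 and 100 reads a library, so these ratios are imprecise.

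Per length, the normoxic ESCs held Dnmt3l and Dnmt3b, but not Dnmt3a, among their most abundant transcripts. By mean exon-length TPM, Dnmt3l lay above 98.9% of the genes of the ESC table, Dnmt3b above 98.3%, Uhrf1 above 97.9%, Dnmt1 above 95.1% and Tet1 above 91.7%. Tet2 lay above 73.8%, Dnmt3a above 68.0% and Tet3 above 27.1%. In TSCs only Dnmt3b (94.3%), Uhrf1 (91.0%) and Dnmt1 (90.6%) lay above 50% of genes, with Dnmt3a next at 49.3% and Tet1 lowest at 18.2%. In XEN cells these were Dnmt1 (92.6%), Uhrf1 (91.9%), Dnmt3b (85.2%) and Tet3 (53.6%), and Tet2 was lowest at 2.201%.

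The make-up of each family, as shares of its summed exon-length TPM, differed between the cell types. The ranges over libraries did not overlap between any of the 3 for the shares of Dnmt3b and Tet3. Of the 3 Dnmt3 genes together, Dnmt3l made up 53.5% to 63.9% in ESCs, Dnmt3b 33.4% to 43.8% and Dnmt3a 2.37% to 2.95%. In XEN cells Dnmt3b made up 90.0% to 96.7%, Dnmt3a 2.90% to 7.22% and Dnmt3l 0.351% to 5.33%. Of the 3 Tet genes together, Tet1 made up 71.3% to 76.8% in ESCs and Tet3 77.3% to 86.4% in XEN cells. The Tet1 share of ESCs kept to that range although the summed Tet level on day 2 was 141 exon-length TPM in the first replicate and 280.0 in the second. These shares depend on the gene length used. By the longest coding transcript, group means in ESCs were 61.3% to 64.8% for Tet1 and 33.0% to 35.5% for Tet2.

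In TSCs the make-up differed between the days of hypoxia. Dnmt3b made up 88.5% and 88.6% of the Dnmt3 total in normoxia, 79.4% and 87.0% on day 2, then 65.2% and 62.8% on day 7. The share of Dnmt3a was 7.95% and 8.30% in normoxia, 3.73% and 7.74% on day 2, then 30.4% and 22.2% on day 7. Dnmt3b thus stood at 11.1 and 10.7 times Dnmt3a in normoxia, 21.3 and 11.2 times on day 2, then 2.14 and 2.84 times on day 7, and the day 7 ratios lay below all others of the 18 libraries. Of the Tet total, Tet1 made up 14.7% and 16.6% in normoxia, 34.1% and 33.0% on day 2, then 6.28% and 9.29% on day 7. Tet3 made up most of the rest, at 55.4% and 55.0%, 40.8% and 42.5%, and 63.1% and 57.8%, and Tet2 held between 24.6% and 32.9% throughout. The groups of 2 do not overlap for Tet1, and no test across libraries was made on these shares.

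**Figure D2:**
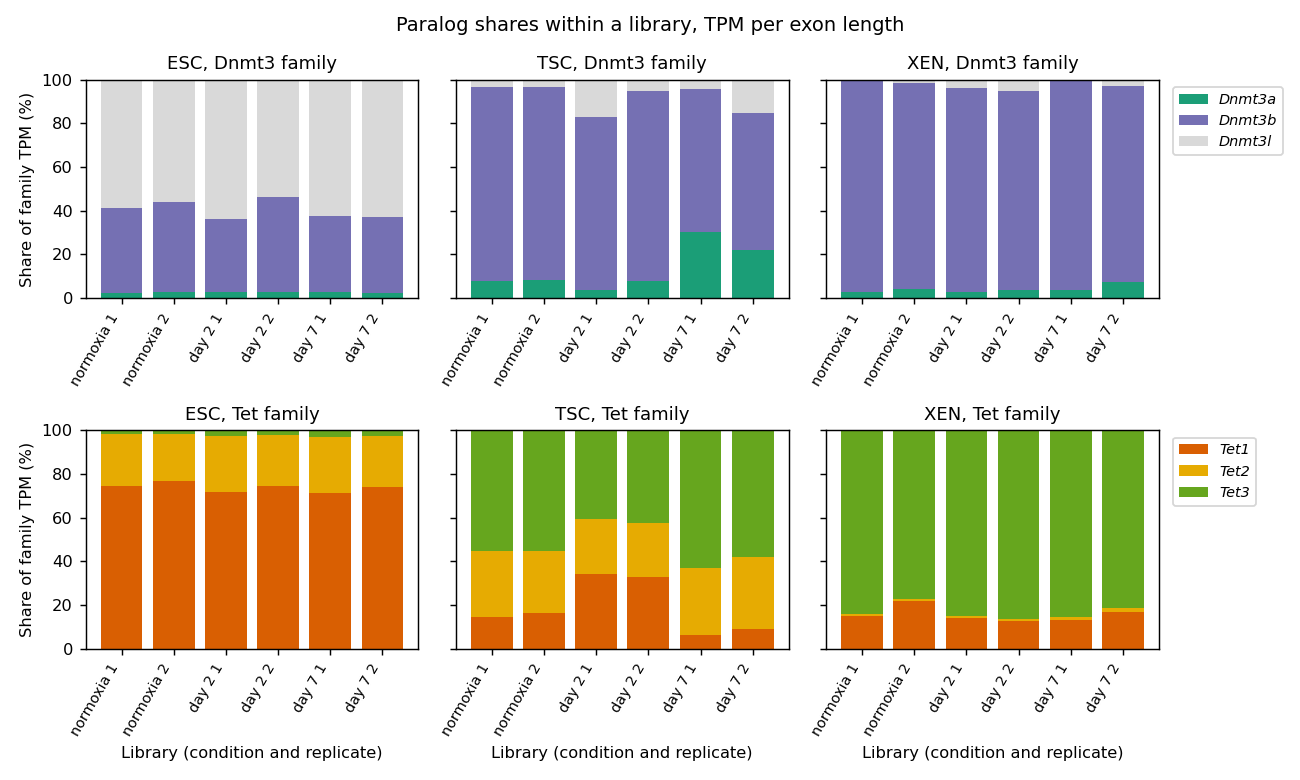
Shares, in percent of summed exon-length TPM, of Dnmt3a, Dnmt3b and Dnmt3l among the Dnmt3 genes and of Tet1, Tet2 and Tet3 among the Tet genes, with a stacked bar for each of the 18 libraries. In TSCs the Dnmt3a share reached 30.4% and 22.2% on day 7, and the Tet1 share was 34.1% and 33.0% on day 2, then 6.28% and 9.29% on day 7.

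In ESCs, none of the 8 genes was DE in any comparison. Over all genes, limma called 0.0% on day 2 against normoxia (0 of 12271 at a smallest adjusted p of 0.215, with 620 at an unadjusted p under 0.05 and 0 with voom), 0.758% on day 7 against normoxia and 0.179% on day 7 against day 2. No member reached an unadjusted p of 0.05 in the 3 comparisons. On day 7 the libraries of 4 of the 8 did not overlap normoxia, Dnmt3l above and Dnmt3b, Tet1 and Tet2 below, where 40.5% of all genes did not overlap. On day 2 against normoxia and on day 7 against day 2 it was 0 of 8, against 30.8% and 24.0% of all genes. The median log2 fold change of the 8 lay between 0.01 and 0.02 in the 3 comparisons, as did that of all genes. TSC markers summed to between 139 and 148 exon-length TPM in normoxic ESCs, 149 and 232 on day 2, then 262 and 458 on day 7. Hand1, of the differentiated trophoblast list, and Col1a1, of the fibroblast list, were DE and higher in ESCs on day 7 against normoxia. Their log2 fold changes were 2.04 and 2.30 (limma adjusted p = 0.0222 and 0.0544). Only 4 of 10 genes of the first list were tested in ESCs, 3 with changes above 0 and 1 below. Of the 10 fibroblast genes 3 were tested, 2 above 0 and 1 below. Whether other cell types contributed to the ESC values was not tested.

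In XEN cells, none of the 7 genes tested was DE either, where limma called 0.0% of genes on day 2 (0 of 10894 at a smallest adjusted p of 0.241, with 846 at an unadjusted p under 0.05 and 0 with voom), 0.11% on day 7 against normoxia and 0.0367% on day 7 against day 2. The libraries did not overlap for 4 of 7 on day 2 (Dnmt3l above, Dnmt3a, Dnmt3b and Tet1 below), for 2 of 7 on day 7 (Uhrf1 above, Dnmt3b below) and for 4 of 7 between the days. The shares over all genes were 41.0%, 41.3% and 47.7%. The median log2 fold change of the 7 was 0.01, 0.01 and -0.06, beside -0.01, -0.03 and -0.02 for all genes.

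In TSCs, all of the calls fell between day 2 and day 7, where 3 of the 8 genes, Dnmt3b, Tet1 and Tet2, were DE and lower on day 7, beside 16.2% of all genes. The libraries of 7 of 8 did not overlap between these days, 6 of them lower on day 7 and Dnmt3a higher, and 59.3% of all genes did not overlap. On day 2 against normoxia 0 of 8 were DE (0.2% of all genes), and 5 of 8, Dnmt3b, Dnmt3l and the 3 Tet genes, lay above normoxia without overlap (47.4% of all genes). On day 7 against normoxia 0 of 8 were DE (0.385% of all genes). Here 5 of 8 did not overlap, Dnmt3a above and Uhrf1, Dnmt3b, Tet1 and Tet2 below, beside 41.3% of all genes. The median log2 fold change of the 8 was 0.47 on day 2, -0.40 on day 7 and -0.89 between the days, and that of all genes 0.07, -0.18 and -0.24. The comparisons of day 7 and of day 2 with normoxia share the normoxic libraries, and each comparison between days shares libraries with both.

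**Figure D3:**
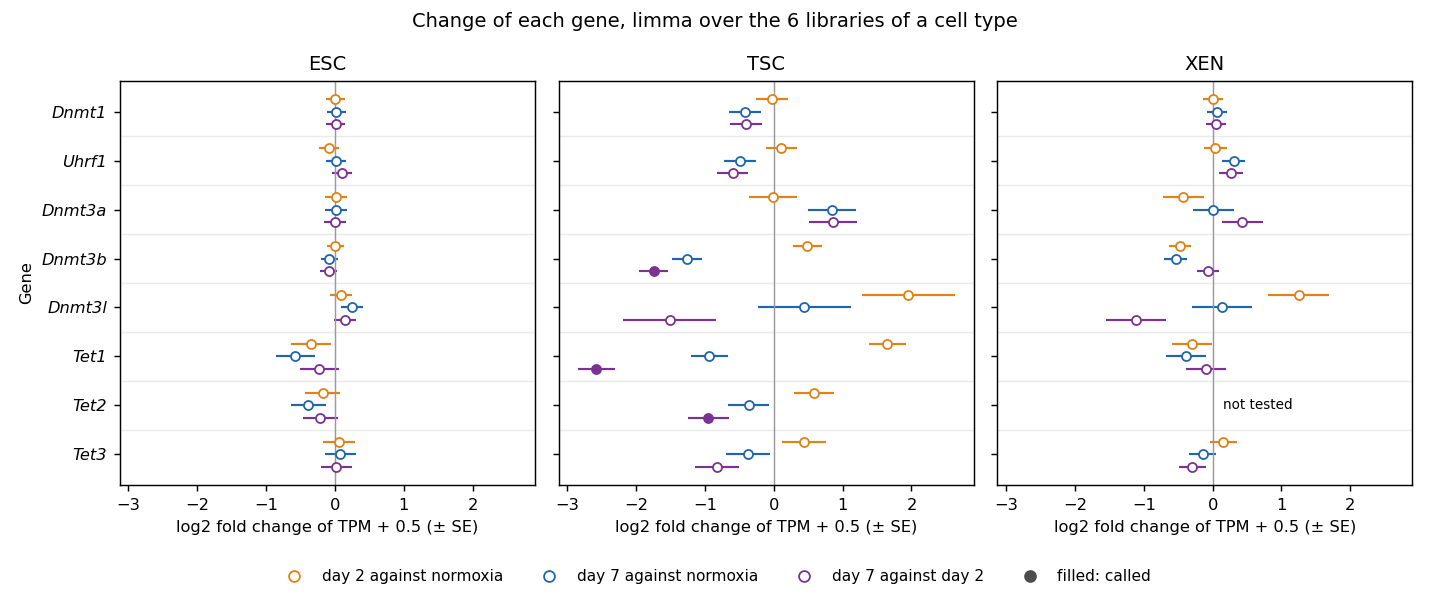
Log2 fold changes (limma, on log2(TPM + 0.5)) of the 8 genes in the 3 comparisons of each cell type, with lines of 1 SE either way and filled points for DE genes. The filled points are Dnmt3b at -1.74, Tet1 at -2.58 and Tet2 at -0.95, all in TSCs on day 7 against day 2.

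The calls between the days in TSCs rested on single libraries, and their direction did not. Without the first day 2 replicate, the log2 fold change was -1.62 for Dnmt3b (limma adjusted p = 0.129), -2.37 for Tet1 (adjusted p = 0.105) and -0.74 for Tet2 (adjusted p = 0.422), and none was DE. Without the second day 7 replicate the values were -1.54, -2.54 and -0.68 (limma adjusted p = 0.152, 0.152 and 0.345), and none was DE. Over all genes, the number called between the days went from 2019 to 30 without the first day 2 replicate and to 0 without the second day 7 replicate. Dnmt3b and Tet1 remained DE without either of the other hypoxic libraries, and Tet2 did not (adjusted p = 0.124 and 0.126). Dnmt3l, not DE otherwise, was so without the second day 2 replicate, at -2.52 (limma adjusted p = 0.0594).

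All genes shifted between these days as well. Scaling each library by the median ratio of its genes moved the median log2 fold change of all genes from -0.24 to 0.02 between the days, and from -0.18 to 0.00 on day 7 against normoxia. It also changed the split of calls between the days from 296 higher and 1723 lower to 740 higher and 966 lower. Under it Dnmt3b (-1.46, limma adjusted p = 0.0239) and Tet1 (-2.40, adjusted p = 0.0197) were still DE, and Tet2 was not (-0.71, adjusted p = 0.148).

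Markers of cell state moved in TSCs along with these genes. The trophoblast stem cell regulators Elf5, Cdx2 and Eomes were DE and lower on day 7 than on day 2, with log2 fold changes of -2.30, -1.68 and -1.55 (limma adjusted p = 0.0068, 0.0294 and 0.0328). Of the 8 markers in this list 4 were DE and lower, and 1, the keratin gene Krt8, was DE and higher at 1.23 (adjusted p = 0.0754). Over all genes 16.2% were called between these days, in either direction. Krt18 and the trophoblast regulator Tfap2c, which were not DE and are named after their values were seen, also lay higher on day 7. Krt18 was at 7785 to 9589 exon-length TPM on day 2 and 13743 to 17214 on day 7, and Tfap2c at 295 to 314 and then 385 in both libraries. The sum of the list, most of it from the keratin genes, was 13075 and 25714 exon-length TPM in normoxia, 14474 and 13507 on day 2, then 23906 and 28237 on day 7. Against normoxia, Elf5 was DE and lower on day 7 (-1.78, limma adjusted p = 0.0435). Of the ESC marker list, 6 of 8 had values in TSCs, and summed to 588 and 571 exon-length TPM in normoxia, 796 and 789.9 on day 2, then 247 and 221 on day 7. Of them 4 were DE and lower on day 7 than on day 2, led by Sox2, Nanog and Esrrb at log2 fold changes of -2.85, -1.96 and -1.91, and Sox2 and Esrrb, which are also trophoblast stem cell genes, were DE and lower against normoxia too, at -2.20 and -1.70. Nanog was at 1.44 and 1.25 exon-length TPM in normoxia, 4.68 and 2.39 on day 2, then 0.516 and 0.511 on day 7. Dppa5a, of the same list and not DE in TSCs, was at 0.299 and 1.13, then 11.99 and 3.09, then 0.801 and 2.11. It rested on 94 and 24 reads on day 2 and on 2 to 16 in the other libraries. The first day 2 library was the highest in it, as in Dnmt3l, Nanog and Zfp42. Sox2 and Esrrb were highest in the second day 2 library, and Klf4 in the first normoxic one. Markers of differentiated trophoblast, 6 of 10 with values and nearly all of the sum from Hand1, came to 5610 and 9497, 5568 and 4742, and 9789 and 8999. Between the days, Prl3d1, a placental lactogen of giant cells, was DE and higher on day 7 (log2 fold change 2.15, limma adjusted p = 0.0351), and Gcm1 and Ascl2 were DE and lower (-1.38 and -1.16, adjusted p = 0.0977 and 0.0775). Of the XEN markers, Pdgfra was DE and higher at 1.55 and Gata4 DE and lower at -1.60 (limma adjusted p = 0.0937 and 0.0237). Feeder fibroblast markers came to 1459 and 203, 152 and 776, and 332 and 212, with no order by condition. The part of these cells in the TSC values was not tested.

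**Figure D4:**
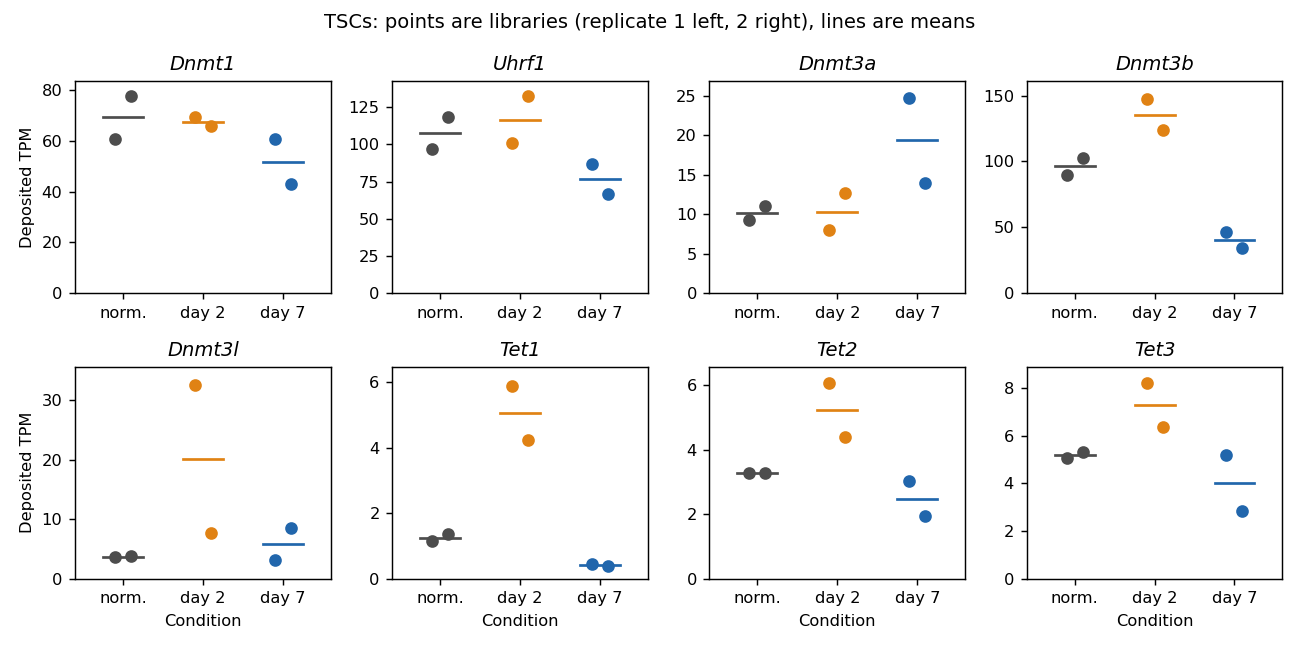
Deposited TPM of each of the 8 genes in the 6 TSC libraries, with points for the libraries and lines for group means. Day 7 libraries lie below day 2 libraries for Dnmt3b (46.2 and 34.6 against 148 and 124) and Tet1 (0.443 and 0.391 against 5.89 and 4.22), and above them for Dnmt3a.

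The other genes of the pathway were counted in lists by role. In TSCs between day 2 and day 7, of 6 partners of maintenance methylation 3 were DE and lower. These were Cdca7, which with Hells remodels nucleosomes, at a log2 fold change of -1.31 (limma adjusted p = 0.0181), the replicative ligase Lig1 at -1.23 (adjusted p = 0.0275) and the Uhrf1 paralogue Uhrf2 at -0.82 (adjusted p = 0.0999). The other 3, Usp7, Pcna and Hells, did not pass, and the median of the 6 was -0.72. Of 11 tested genes that target methylation to chromatin, 3 were DE and lower and 0 higher, namely Zfp57, a zinc finger protein of imprinted regions, at -1.14, and the histone methyltransferases Setdb1 and Ehmt2 at -0.78 and -0.69. Their median was -0.50. Of 8 partners and regulators of the TET enzymes, 5 were DE and lower, among them Nanog at -1.96, Cxxc5 at -1.22 and the glycosyltransferase Ogt at -1.198, and the median was -0.89. Nanog, counted among the ESC markers too, was low in TSCs, with 133 and 67 reads on day 2 and 14 in each day 7 library. The counts and medians of these lists compare with a median of -0.24 and with 16.2% of genes called, in either direction, over the whole table.

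Genes that supply the methyl group or repair its oxidised products were counted in the same way. Of 7 genes of the methyl donor cycle, Ahcyl1 and Mat2b were DE and lower on day 7 than day 2 in TSCs, with log2 fold changes of -0.84 and -0.78, and the median was -0.58. Of 11 tested genes for the repair of oxidised or deaminated cytosine, 3 were DE and lower, Parp1 at -1.33, the glycosylase Neil1 at -0.91 and Xrcc1 at -0.74, with a median of -0.62. Of 20 germline genes that are known for methylated promoters, 13 were tested. Of these, the piRNA pathway genes Tdrd1 and Tdrkh were DE and lower, at -0.99 and -0.85, with a median of -0.29. Over all genes the median was -0.24 and 16.2% were called in either direction, close to the values of the germline list.

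DNA replication genes, listed because maintenance methylation acts behind the fork, were DE and lower on day 7 than day 2 in TSCs in 11 of 20, led by Mcm7, Gins1 and Mcm10 at log2 fold changes of -1.31, -1.23 and -1.09, with a median of -0.71. The glycolysis list, the check of hypoxia, was DE and lower in 6 of 10, with Pdk1 at -2.44, Bnip3 at -1.77 and Pgk1 at -0.99 and a median of -0.91. Over all 12481 genes tested, 16.2% were called in either direction, 1723 of them lower, and the median was -0.24. Of the methylation lists, the count of lower calls under median-ratio scaling was 2 for maintenance partners, 2 for TET partners, 1 for repair and 0 for targeting, the methyl donor cycle, where 1 gene was called higher, and germline genes, and it was 4 for replication genes and 3 for glycolysis. Over all genes, 966 were called lower and 740 higher under this scaling. Without the first day 2 or the second day 7 replicate no gene of these lists was DE, save 1 of glycolysis without the former.

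Outside this comparison the lists gave few calls. In ESCs on day 7 against normoxia, Dppa3, which keeps UHRF1 from chromatin, rose from a mean of 45.9 to 96.1 deposited TPM (log2 fold change 1.06, SE 0.14, limma adjusted p = 0.0222), the only DE gene of 13 in the targeting list. The meiotic gene Hormad1 rose from 5.54 to 12.1 (log2 fold change 1.07, SE 0.18, limma adjusted p = 0.0696), the only DE gene of 19 germline genes, whose median was 0.18 beside 0.02 for all genes. In TSCs on day 2 against normoxia, the median of 13 germline genes was 0.61 and that of 8 TET partners 0.56, beside 0.07 for all genes, and 0 of either list were DE. In XEN cells no tested gene of these methylation lists was DE in any comparison, and only 1 of 20 germline genes was tested there. The largest change of the tested genes against normoxia was that of the glycosylase Neil2 on day 2 (log2 fold change -1.10, limma adjusted p = 0.456). The glycolysis genes were DE and higher in 2 of 10 in ESCs on day 7 (Pfkl and Ldha), 4 of 10 in TSCs on day 2 (Pdk1, Bnip3, Pgk1 and Pfkl) and 1 of 10 in XEN cells on day 7 (Egln3, log2 fold change 2.81 against normoxia and 2.07 against day 2). Against normoxia, 0.758%, 0.2% and 0.11% of all genes were called in these. In TSCs on day 7 against normoxia 0 of 10 were DE. Their median there was 0.51, beside 1.36 on day 2, and all 10 lay above 0 on both days.

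**Figure D5:**
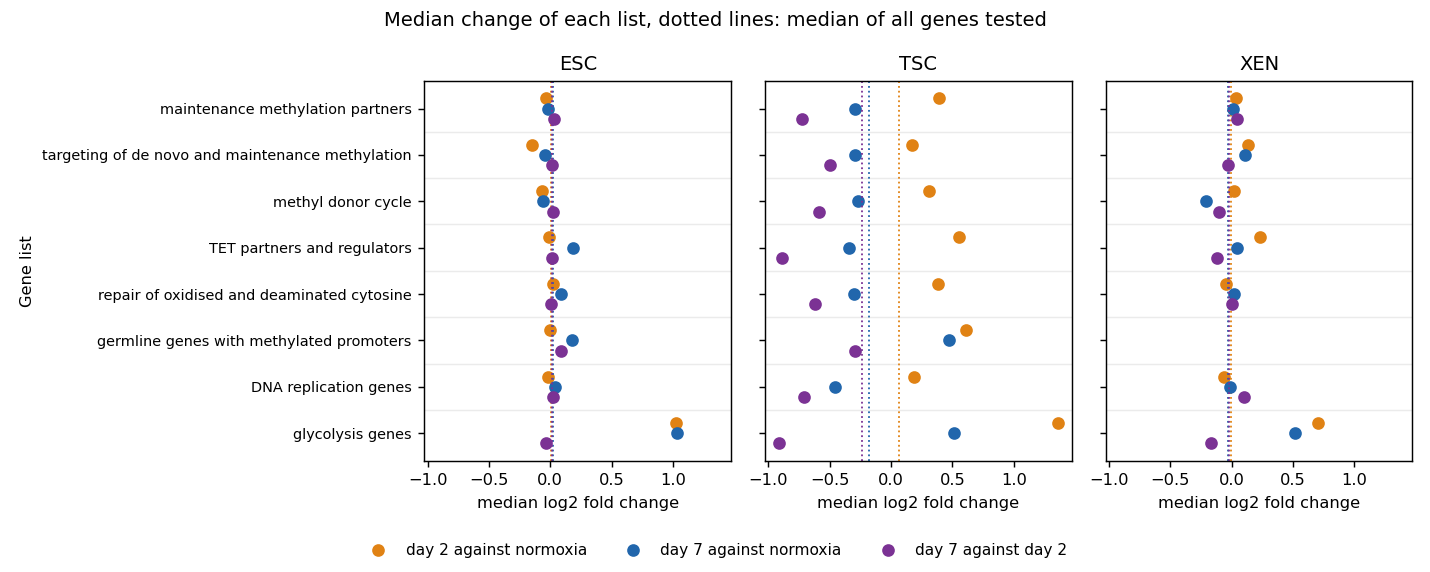
Median log2 fold change of 8 gene lists in the 3 comparisons of each cell type, a row per list, with colours for the comparisons and dotted lines at the medians of all genes tested. In TSCs on day 7 against day 2, TET partners had a median of -0.89 and germline genes a median of -0.29, beside -0.24 for all genes.

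The genes whose pattern was most like each member were read from the log2(TPM + 0.5) values less their cell type mean. Over 18 libraries, Uhrf1 was nearest to the replicative helicase gene Mcm5 (Pearson r = 0.91), Rcor2 (0.90) and Erbb2 (0.89), and Dnmt1 to Reps1, Zfp869 and Clspn (each 0.90). Dnmt3b was nearest to Rbpms2 (0.96), Alg13 and Taf4b (both 0.95), Dnmt3a to Sdc1 (0.80), Foxo4 and Hmgn1 (both 0.79), and Dnmt3l to Ccnb1ip1 (0.86), Dppa5a (0.84) and Park7 (0.83). Tet1 was nearest to Tdp2, Zfp292 and Hypk (each 0.94), Tet3 to Rbm15 and Kdm5c (both 0.95) and Pikfyve (0.94), and Tet2, over the 12 ESC and TSC libraries, to Crip3 (0.98), Pou2f1 and Xrn1 (both 0.97). Between members, r over 18 libraries was 0.83 for Dnmt3b and Tet1, 0.76 for Tet1 and Tet3 and 0.72 for Dnmt1 and Dnmt3b. It was 0.70 for Dnmt3b and Tet3, 0.68 for Dnmt1 and Uhrf1 and 0.64 for Dnmt1 and Tet3. Uhrf1 and Dnmt3b gave 0.57, and Dnmt3a and Dnmt3b gave -0.56. Within cell types, Dnmt3b and Tet1 ranged from 34.6 to 148 and from 0.391 to 5.89 deposited TPM in TSCs. In ESCs they ranged from 219.7 to 252 and from 44.3 to 92.9, and in XEN cells from 32.4 to 53.1 and from 1.81 to 3.98. Their r thus weighs the TSC libraries most. For Tet2, r was computed only with Tet3, at 0.89 over 12 libraries. The points share libraries and their depth, and these values are a description.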

How the data were processed

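Bulk RNA-seq was made of ESCs, TSCs and XEN cells kept in normoxia or for 2 or 7 days in hypoxia, from 2 biological replicates each. Per the methods and the submitters' processing notes, the authors trimmed reads with cutadapt 2.4, aligned them to mm10 with STAR 2.7.5a, counted them on genes (featureCounts and StringTie 2.0.6 are named) and tested them with edgeR 3.26.8. The authors deposited TPM, scaled to the same sum in each library, with the cell types in separate tables; columns labelled as day 0 were taken as normoxia. The strand setting of the counting is not given in the sources used here, and 0 columns were left out.

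Whole reads were recovered from TPM times gene span, and 98.7% to 98.9% of values in a library lay within 0.05 of a whole number. They gave the depth, exon-length TPM (GENCODE M21 on GRCm38) and the voom alternative. A limma model (limma 3.58.1, R 4.3.3) was fitted to log2(TPM + 0.5) of genes above 0.4 TPM in at least 2 of 6 libraries, with a mean-variance trend and 3 residual degrees of freedom for the 6 libraries of a cell type. DE genes were those changed over 1.5-fold with a p, adjusted by Benjamini-Hochberg over all genes tested, no higher than 0.1, as the study set it. This fit took the place of the authors' count test because the deposited unit is TPM. Against normoxia it called fewer genes than the study reported at these thresholds, on both days and in each cell type. A gene that was not DE here was therefore not shown to be unchanged. Python 3.11.15, numpy 2.4.6, pandas 2.3.3 and matplotlib 3.10.9 were used for the rest.

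The 8 genes were taken by name, by a rule that uses no measured value, but they, the lists and the tests were chosen with earlier results of these data known. All 8 genes are named in every comparison, and of each list up to 3 DE genes per direction, by size of change, or the gene with the largest change. A further gene list is not reported here. Likeness between genes is Pearson r, with the 3 highest genes named. Alternatives were other pseudocounts and filters, median-ratio scaling, the replicate number as a block, no trend, a stricter threshold, the 4 libraries compared, exon-length TPM, voom and each library left out. Swapped replicate numbers and shares by the longest coding transcript were added after the data were seen. Same-numbered libraries deviated together with correlations from -0.46 to 0.27, so the numbers were not taken as pairs. The recovery and the fit were tested on simulated data. The intervals and SEs cover these libraries, and proteins, DNA methylation and the other assays of the study were not analysed here.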

Additional observations from a re-analysis of the deposited data

Results flagged for a closer look

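Uhrf1, Dnmt3b and Tet1 differed in direction between TSCs and XEN cells, in that each library of the first moved one way from its control group and each of the other the opposite way. These differences were not tested. On day 7 against normoxia, the log2 fold change of Uhrf1 was -0.49 in TSCs and 0.31 in XEN cells, a difference of -0.79, and on day 7 against day 2 it was -0.60 and 0.27, a difference of -0.86. Both comparisons share the day 7 libraries. On day 2 against normoxia, Dnmt3b was at 0.49 in TSCs and -0.47 in XEN cells, a difference of 0.96. Tet1 was at 1.65 and -0.29, a difference of 1.94. None of these fold changes passed the limma test in its own cell type. Non-overlap of libraries was found for 41.0% to 59.3% of all genes in these comparisons. With single libraries left out the signs were kept, but the XEN change of Tet1 lay between -0.52 and -0.06. That of Uhrf1 in XEN cells on day 7 against normoxia lay between 0.13 and 0.48. The median of all genes in TSCs was itself -0.18 on day 7 against normoxia and -0.24 between the days. With 2 libraries per group, single outlying libraries could not be tested.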

How the results depend on the processing

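Of the 9 comparisons, the number of DE members was the same under all alternatives run in 5 (0 in each), and no DE fold change reversed. In TSCs on day 2 against normoxia, voom called 1 member (Tet1) and the block with the day 2 numbers swapped, an alternative added after the data were seen, called 2 (Dnmt3l and Tet1), against 0. On day 7 against normoxia, exon-length TPM called 1 (Dnmt3b), against 0. Between the days in TSCs, the alternatives called up to 4, against 3. When single libraries were left out, the count lay between 0 and 3 for TSCs on day 7 against day 2 and between 0 and 1 for ESCs on these days; the libraries behind this are named in the report. In TSCs between the days, Tet2 also missed the threshold with no filter (adjusted p = 0.111), on exon-length TPM (0.110), with the 4 libraries compared (0.1001) and without the second normoxic library (0.1004), by limma. Same-numbered libraries were checked for pairing, and their deviations correlated at 0.01, -0.09 and -0.22 among ESC groups, -0.46, 0.27 and -0.03 among TSC groups and 0.11, 0.24 and -0.11 among XEN groups. The replicate block left 3 members DE in TSCs between the days and 0 elsewhere. Over all genes, it called 18 against 93 in ESCs on day 7, 6 against 22 between the days, 3 against 25 and 13 against 48 in TSCs on days 2 and 7 and 43 against 12 in XEN cells on day 7. Over all alternatives, these counts for day 2, day 7 and between the days reached from 0 to 493, 8 to 322 and 0 to 192 in ESCs, 0 to 326, 0 to 185 and 0 to 2215 in TSCs, and 0 to 61, 1 to 195 and 0 to 83 in XEN cells. Of 1137 fold changes of members that passed in no fit, 64 had the other sign. Shares of the families moved by at most 6.43 percentage points by gene span and 10.8 by the longest coding transcript. All tests rest on 2 replicates per group, and Dnmt3l and Tet2 in XEN cells also on few reads, 14 to 235 and 63 to 90 a library.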
